A study of Mus musculus with 8 samples.

Results

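Serpins are a family of protease inhibitors, and 58 serpin genes had at least 1 probe on the mouse arrays used here, of 19751 gene symbols in all. They were chosen by name: every non-control probe whose RefSeq accession maps to a mouse symbol of serpin clade A to I was taken, which gave 71 of 39429 probes. RNA of whole liver was measured in 8 mice, with 1 array per mouse and 2 mice in each of 4 groups. All 8 mice carried liver-specific expression of an activated oncogene and of mutant p53 (p53R172H). The AKP males and the AKP females had these alleles alone, and the AKP::Keap1 males and the AKP::Keap1 females had a deletion of Keap1 as well. Keap1 is the adaptor that holds the transcription factor Nrf2 at a low level. The ages of the mice and the promoter that drove recombination are not given in the sources used here, and nothing in them says which mice were littermates. P-values measure the spread between the 2 mice within each group, pooled over the 4 groups, and cover these 8 samples alone.

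Most serpins inhibit serine proteases, and a few inhibit cysteine proteases. The protease cuts an exposed reactive centre loop, the loop then inserts into the body of the serpin, and the protease is trapped in a covalent complex, so each molecule works once. Some members have lost inhibition and carry hormones, fold collagen or signal instead. Hepatocytes secrete most of the serpins of plasma, which are largely of clade A and of clades C, D, F and G. Clade B serpins lack a classical signal peptide, stay mostly inside cells and are known for guarding leukocytes and epithelia against their own granule and lysosomal proteases.

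Signal is given on a log2 scale relative to the 75th percentile of the same array, so 0 is the level of a fairly bright probe. Testing a gene required a probe that exceeded background clearly on 2 or more of the 8 arrays, and 47 of the 58 serpin genes were tested. Of the other 11, 9 were above background on no array (Serpinb11, Serpinb13, Serpinb3a, Serpinb3b, Serpinb7, Serpinb9b, Serpinb9c, Serpinb9d and Serpinb9f), and Serpina3j and Serpinb9g were above it on 1 array each. Of the 47 tested, 35 were above background on all 8 arrays. Between 65.7% and 70.7% of spots on an array were well above background, and no spot was saturated. Each slide held 1 group, so slide and group cannot be told apart, and the females and the males were scanned on different days, so scan day and sex cannot be told apart. The genotype difference within a sex lies within 1 scan day.

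Keap1 itself, the deleted gene, was lower in AKP::Keap1 liver, with a difference of -2.85 ± 0.11 (log2, standard error; limma adjusted p = 0.00018), and its signal did not overlap between genotypes. As a check of the liver label, all 8 hepatocyte markers (Alb, Ttr, Apoa1, Cps1, Hpd, Tat, Cyp2e1 and Fgb) passed the filter on signal. The samples also differed in other markers. Of 8 biliary markers 7 were higher in AKP::Keap1 liver, of 8 tested neutrophil markers 5 were higher, and of 8 stellate cell and fibroblast markers 6 were higher, while 4 of 8 hepatocyte markers and 4 of 7 endothelial markers were lower. Among all genes tested 22.0% were higher and 17.2% lower. In whole liver, fewer cells of a type and less RNA per cell cannot be told apart.

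The promoters of 5 members are printed here. The 4 genes Serpinb6a, Serpinb6c, Serpinb6d and Serpinb6e were higher together in AKP::Keap1 liver, and Serpina3f differed between the sexes. Each stretch is the 250 bases before a RefSeq transcription start in assembly GRCm38.p6, read 5′ to 3′ on the gene's strand. Where a gene has several listed starts, the stretch with the most matches to the letters searched is shown. The positions are chr13:33936084-33936333 (minus strand) for Serpinb6a, chr13:33905192-33905441 (minus) for Serpinb6c, chr13:33661155-33661404 (plus) for Serpinb6d, chr13:33843409-33843658 (minus) for Serpinb6e and chr12:104214294-104214543 (plus) for Serpina3f. Capitals mark a match to the antioxidant response element core in Serpinb6a and to the STAT5 letters in Serpina3f. The other stretches hold neither.
Serpinb6a: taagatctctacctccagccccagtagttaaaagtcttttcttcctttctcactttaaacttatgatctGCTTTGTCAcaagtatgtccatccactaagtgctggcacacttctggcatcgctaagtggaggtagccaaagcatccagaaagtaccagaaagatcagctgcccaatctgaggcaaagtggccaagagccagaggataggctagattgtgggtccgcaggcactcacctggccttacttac
Serpinb6c: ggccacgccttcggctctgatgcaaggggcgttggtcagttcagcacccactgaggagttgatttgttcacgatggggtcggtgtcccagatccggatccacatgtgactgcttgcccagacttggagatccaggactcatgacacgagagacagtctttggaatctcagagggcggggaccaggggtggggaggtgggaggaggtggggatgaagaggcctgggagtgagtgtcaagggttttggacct
Serpinb6d: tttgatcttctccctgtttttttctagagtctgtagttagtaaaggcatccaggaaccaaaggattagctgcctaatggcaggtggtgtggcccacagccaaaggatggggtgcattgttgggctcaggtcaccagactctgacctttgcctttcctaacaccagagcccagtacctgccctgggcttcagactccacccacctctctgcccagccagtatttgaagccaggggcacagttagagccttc
Serpinb6e: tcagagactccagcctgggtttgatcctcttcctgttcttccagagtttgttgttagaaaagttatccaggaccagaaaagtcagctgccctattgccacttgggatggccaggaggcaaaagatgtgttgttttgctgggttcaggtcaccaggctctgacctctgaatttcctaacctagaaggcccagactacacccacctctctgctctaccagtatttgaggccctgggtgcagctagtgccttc
Serpina3f: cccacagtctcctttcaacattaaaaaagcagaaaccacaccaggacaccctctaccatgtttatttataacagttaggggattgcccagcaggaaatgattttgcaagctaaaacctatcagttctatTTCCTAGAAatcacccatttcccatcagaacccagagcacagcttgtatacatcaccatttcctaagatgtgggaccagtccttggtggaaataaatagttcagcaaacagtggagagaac

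The core of the antioxidant response element, the DNA site bound by Nrf2, was searched as TGACNNNGC on both strands. It occurred in 10.2% of the 32851 RefSeq windows of this length and in 3 of 57 serpin windows (5.26%), which belong to Serpinb6a, Serpinb12 and Serpind1. In Serpinb6a it lies 181 bases before 1 of 2 listed starts, on the opposite strand. The STAT5 letters TTCNNNGAA occurred in 7.02% of all windows and in 8 serpin windows (14%). These windows belong to 6 of 48 serpin genes: Serpina11, Serpina1f, Serpina3f, Serpinb2, Serpinb6a and Serpinb9c. A longer HNF1 consensus site, also searched on both strands, was found in 0.0609% of all windows and in no serpin window. These are matches of letters and say nothing of binding. In global alignments of the same 250 bases, Serpinb6d and Serpinb6e were identical at 73.6% of positions and Serpinb6a and Serpinb6e at 63.6%. The other pairs among Serpinb6a to Serpinb6e lay between 54.8% and 59.2%, where the median of 1118 other pairs of serpin windows was 58%.

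Most clade B serpins tested on chromosome 13 were higher in AKP::Keap1 liver. On chromosome 1 it was 1 of 7, of which only 2 were above background on every array. Most plasma serpins had small differences, mainly negative, that were not called. Averaged over the sexes, 14 serpin genes were higher in AKP::Keap1 than in AKP liver, 4 were lower and 29 were not called at a Benjamini-Hochberg adjusted p of 0.05 in limma. The 18 called are 38.3% of the 47 tested, and 39.2% of all 15862 genes tested were called in this comparison (22.0% higher and 17.2% lower). As a family, the serpins were therefore called at about the rate of all genes. The median log2 difference was 0.18 for the serpins and -0.00019 for all genes. The split moved with the scaling: with arrays shifted to their median it was 10 higher and 14 lower, with normexp background correction 9 and 8, and without any scaling 17 and 0. Those settings moved the median of all genes to -0.25, -0.13 and 0.31.

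**Figure D1:**
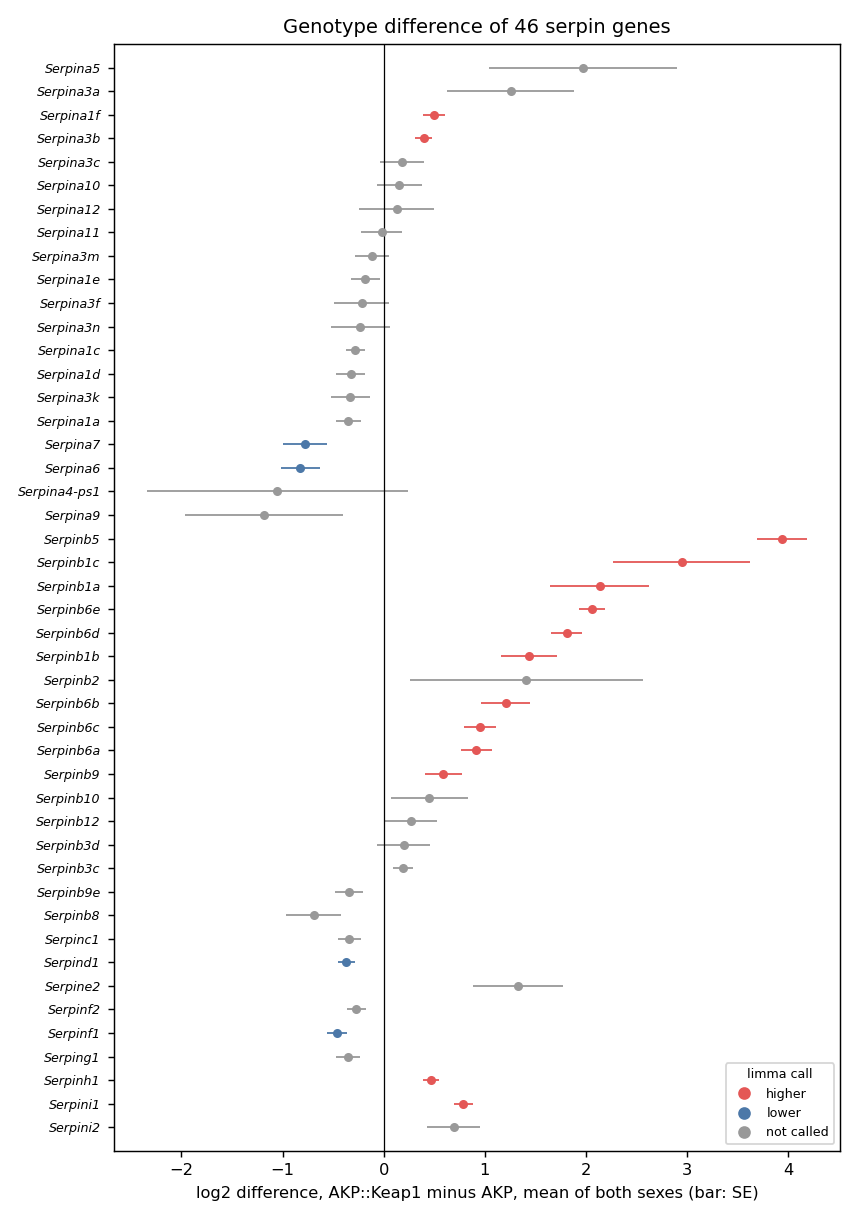
Log2 difference between AKP::Keap1 and AKP liver, as the mean over both sexes, for 46 of the 47 serpin genes tested, grouped by clade and ordered by size. Points are limma estimates from 8 arrays, bars are standard errors, and colour gives the call at an adjusted p of 0.05. Red points gather in clade B, where 10 of 17 genes were called higher, against 22.0% of all genes. The 4 blue points are Serpina6, Serpina7, Serpind1 and Serpinf1.

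Clade B held most of the rises. Of its 27 members 17 were tested, and 10 were higher and none lower, with a median log2 difference of 0.96. Among all genes 22.0% were higher. Serpinb5 and Serpinb1b were well above background in AKP::Keap1 mice only. They passed the filter through that group, so the count of 10 is a description. Of 20 clade A genes tested 2 were higher and 2 lower, with a median of -0.20. Within clade B the rises lay mostly on 1 chromosome. RefSeq places 15 clade B genes on chromosome 13 and 12 on chromosome 1. On chromosome 13, 10 were tested and 9 were higher (median 1.32), 1 of which, Serpinb1b, changed sign with normexp. On chromosome 1, 7 were tested and only Serpinb5 was higher (median 0.27). The count of 9 was looked at after the values were seen, and members were filtered on signal, so it is a description. All 7 of the chromosome 13 genes that were above background on every array were higher. On chromosome 1 only 2 tested clade B genes were above background on every array, and 0 of them were higher. Serpinb9e, the tenth tested gene there, had a difference of -0.34 ± 0.14 (adjusted p = 0.089). The count of 9 fell to 6 without AKP female mouse 2 and to 6 without AKP::Keap1 female mouse 2.

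The Serpinb6 genes are relatives of the human inhibitor of cathepsin G and thrombin that is found in many cell types. Serpinb6e read -5.77 and -5.73 in the AKP males, -3.25 and -3.17 in the AKP::Keap1 males, -5.01 and -4.91 in the AKP females, and -3.65 and -3.14 in the AKP::Keap1 females. Every AKP::Keap1 array was above every AKP array, with a difference of 2.06 ± 0.13 (4.16-fold, adjusted p = 0.00048). Serpinb6d read -4.10 and -4.26 in the 2 AKP males, -1.88 and -1.83 in the AKP::Keap1 males, -3.14 and -3.33 in the AKP females, and -2.25 and -1.61 in the AKP::Keap1 females. The genotypes again did not overlap, and the difference was 1.81 ± 0.16 (3.51-fold, adjusted p = 0.0011). Serpinb6b, whose product inhibits granzyme A, read -1.59 and -2.02 in the 2 AKP males, 0.08 and -0.70 in the AKP::Keap1 males, -1.11 and -1.81 in the AKP females, and -0.66 and -0.43 in the AKP::Keap1 females. Its lowest AKP::Keap1 array lay above its highest AKP array, and the difference was 1.21 ± 0.24 (2.31-fold, adjusted p = 0.011). Serpinb6c and Serpinb6a were higher by 0.96 ± 0.16 (adjusted p = 0.006) and 0.92 ± 0.16 (adjusted p = 0.0068), also without overlap. A second Serpinb6c probe gave 1.30. These 5 genes and Serpinb5 were the only 6 of the 18 called serpins that kept direction and call under every alternative that tested them. With normexp the sizes were smaller for Serpinb6e (0.60) and Serpinb6d (1.15). The array design's probe sequences were not used here, so signal shared between these close paralogs could not be separated.

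The Serpinb1 genes include the mouse counterparts of the leukocyte elastase inhibitor, which blocks neutrophil elastase and cathepsin G. Serpinb1a read -1.28 and -0.40 in the 2 AKP males, 2.16 and 0.42 in the AKP::Keap1 males, 1.29 and -0.09 in the AKP females, and 2.58 and 2.91 in the AKP::Keap1 females. Each sex was separated by genotype, while AKP female mouse 1 lay above AKP::Keap1 male mouse 2. The difference was 2.14 ± 0.49 (4.40-fold, adjusted p = 0.017), and it lost its call without AKP male mouse 1 (1.92, adjusted p = 0.055), AKP female mouse 2 (1.79, 0.051) or AKP::Keap1 female mouse 2 (2.06, 0.053). Serpinb1c read -8.81 and -6.65 in the 2 AKP males, -3.14 and -5.21 in the AKP::Keap1 males, -4.28 and -5.78 in the AKP females, and -2.85 and -2.54 in the AKP::Keap1 females. It was not well above background in either AKP male, and the male difference was at least 5.20-fold. That bound sets the AKP::Keap1 mean against the lowest signal well above background on each AKP array, or against the dim probe's own signal where that is higher. The male call (adjusted p = 0.039) was lost in 5 of 9 other settings and in 5 of 8 fits without 1 array, and the fitted male difference of 3.56 shrank to 0.44 with normexp. Over both sexes the fitted difference was 2.95 ± 0.68 (adjusted p = 0.018), which became 2.57 (0.057) without AKP female mouse 2 and 2.87 (0.052) without AKP::Keap1 female mouse 2. With normexp it was 0.84 (0.031).

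Serpinb1b was above background only in the AKP::Keap1 males. It passed the filter through that group, so its calls are a description. It read -8.84 and -8.77 in the 2 AKP males, -6.07 and -6.23 in the AKP::Keap1 males, -7.85 and -7.88 in the AKP females, and -6.98 and -8.32 in the AKP::Keap1 females. In males the difference was at least 1.33-fold (adjusted p = 0.0084), but with normexp the sign turned, to -0.36 in males (0.14) and -0.18 over both sexes (0.29). The call over both sexes was also lost with slide as a random block (0.11). In females both genotypes were below background. Serpinb9, whose product inhibits granzyme B, was higher by 0.59 ± 0.18 (adjusted p = 0.044), with no overlap between the genotypes. That call was lost in 7 of the 8 fits without 1 array and in 6 of the other 10 settings.

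**Figure D2:**
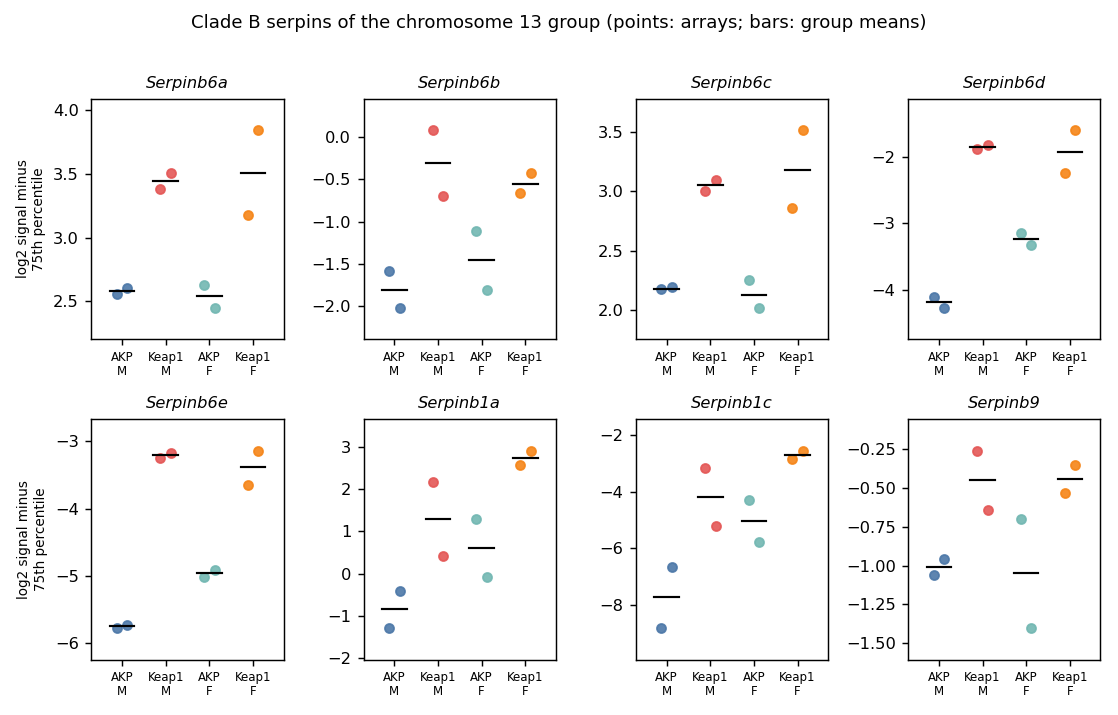
Signal of 8 clade B serpins of chromosome 13 on each array, as log2 of the processed signal minus the array's 75th percentile. Points are single mice, horizontal bars are group means of 2 mice, M and F are males and females, Keap1 on the axis stands for AKP::Keap1, and each panel has its own scale. In Serpinb6a to Serpinb6e and Serpinb9 all AKP::Keap1 mice lie above all AKP mice, and in Serpinb1a and Serpinb1c they do so within each sex.

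Serpinb5, or maspin, is an epithelial serpin of squamous and glandular tissue that does not inhibit proteases by the usual mechanism. It read -6.59 and -6.76 in the 2 AKP males, -3.61 and -3.89 in the AKP::Keap1 males, -9.12 and -8.87 in the AKP females, and -4.61 and -3.48 in the AKP::Keap1 females. All 4 AKP::Keap1 arrays were well above background and no AKP array was, so the difference in the processed signal is at least 7.12-fold (adjusted p = 0.0005). Serpinb5 passed the filter through the AKP::Keap1 mice, so this call is a description. With normexp the fitted log2 difference shrank from 3.94 to 0.76 (adjusted p = 0.0058), and the male difference of 0.44 was not called (0.13). Its sex difference was called as well (-1.31 ± 0.25, adjusted p = 0.02), but no AKP array of either sex was well above background. Within AKP::Keap1 the means were -3.75 ± 0.19 (SD, n = 2) in males and -4.04 ± 0.80 in females, which overlapped. Of the other 6 clade B genes tested on chromosome 1, Serpinb8 had the only negative difference, -0.69 ± 0.27 (adjusted p = 0.086), and Serpinb2, a plasminogen activator inhibitor, had 1.41 ± 1.16 (adjusted p = 0.36). The 2 Serpinb12 probes had opposite signs (0.27 and -0.88), and with normexp Serpinb12 was lower, with a difference of -0.38 (adjusted p = 0.017).

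Markers of several cell types moved with these rises. The 7 biliary markers that were higher included Tspan8 (5.65 ± 0.37) and Anxa13 (4.74 ± 0.29), and the summed level of the 8 genes was 1.77 to 3.24 in AKP mice and 5.32 to 6.44 in AKP::Keap1 mice. The summed neutrophil level was 2.32 to 3.14 in AKP mice and 4.96 to 5.36 in AKP::Keap1 mice. S100a8 (2.97 ± 0.22) and Elane (2.19 ± 0.18) were among the 5 that were higher, and Ly6g did not pass the filter. The summed stellate cell and fibroblast level was 3.53 to 3.89 in AKP mice and 4.57 to 4.67 in AKP::Keap1 mice. Of 7 tested squamous markers, Krt13 (0.92 ± 0.10) and Krt5 (0.97 ± 0.11) were among 3 that were higher, and the summed levels overlapped (1.93 to 2.19 in AKP and 1.81 to 2.27 in AKP::Keap1). Krt1, Dsg3 and Ivl did not pass the filter. These counts stand beside 22.0% higher and 17.2% lower among all genes. Of the macrophage list 3 of 8 were higher, of T and NK cell markers 2 of 8, of platelet markers 1 of 5 and of B cell markers 1 of 6, of which all but the first are near or below that share. Of 6 tested mast cell markers 2 were higher and 1 lower. The part of these markers in the serpin differences was not tested.

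The secreted serpins of plasma were among the brightest probes, and most had small differences, mainly negative. The paralogs of alpha-1-antitrypsin, Serpina1a, Serpina1c, Serpina1d and Serpina1e, protect tissue from neutrophil elastase, and none of the 4 was called over both sexes (median -0.30). Serpina1a read 8.91 and 8.61 in the 2 AKP males, 8.12 and 8.16 in the AKP::Keap1 males, 8.24 and 8.34 in the AKP females, and 8.40 and 8.01 in the AKP::Keap1 females. Only in the males did the genotypes separate. The difference was -0.35 ± 0.12 over both sexes (adjusted p = 0.068), -0.62 ± 0.18 in males (adjusted p = 0.045) and -0.08 ± 0.18 in females (adjusted p = 0.77). The male call was lost in 7 of 10 other settings, where the value lay between -0.99 and -0.11, and in 6 of 8 fits without 1 array. Serpina1f, a more distant relative, was higher by 0.50 ± 0.11 (adjusted p = 0.016), but its sign turned with normexp (-0.03). Serpina3k, an inhibitor of trypsin-like proteases in mouse plasma, read 8.61 and 8.33 in the 2 AKP males, 7.99 and 8.07 in the AKP::Keap1 males, 7.71 and 8.12 in the AKP females, and 8.06 and 7.33 in the AKP::Keap1 females. Its genotypes overlapped, with a difference of -0.33 ± 0.19 (adjusted p = 0.21). Of the other Serpina3 genes tested only Serpina3b was called, 0.39 ± 0.09 higher (adjusted p = 0.016), and it lost that call with normexp, quantile normalization, the shift to the median and slide as a random block (0.095), and without AKP male mouse 2 (0.05) or AKP::Keap1 male mouse 2 (0.06).

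Both hormone carriers were called lower over both sexes, though neither call held in every setting. Serpina6 is corticosteroid-binding globulin and Serpina7 is thyroxine-binding globulin, and neither inhibits proteases. Serpina6 read 4.97 and 5.16 in the 2 AKP males, 4.14 and 4.43 in the AKP::Keap1 males, 6.16 and 6.21 in the AKP females, and 4.92 and 5.73 in the AKP::Keap1 females. The genotypes separated within each sex but overlapped across the sexes. The difference was -0.82 ± 0.19 (1.77-fold, adjusted p = 0.018), and a second probe gave -1.10. The call was lost without scaling (-0.51, adjusted p = 0.14), under quantile normalization (-0.72, 0.05) and without AKP male mouse 2 (-0.78, 0.057), AKP::Keap1 male mouse 1 (-0.75, 0.058) or AKP female mouse 2 (-0.81, 0.056). Serpina7 was lower, with a difference of -0.78 ± 0.22 (adjusted p = 0.033). It was -0.26 in males (adjusted p = 0.54) and -1.30 in females (0.032). The female call was lost in a fit of the females alone and in 5 of 8 fits without 1 array. Its interaction of genotype and sex was not called (-1.03 ± 0.43, adjusted p = 0.22). The call over both sexes was lost in 5 of the 8 fits without 1 array, without scaling (-0.47, 0.1) and with slide as a random block (0.12).

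Serpinc1, Serpind1, Serpina10 and Serpinf2, which inhibit clotting or fibrinolysis, were high in all mice. Not every such inhibitor was bright, and the plasminogen activator inhibitor Serpinb2 read between -8.71 and -3.08. Serpinc1, antithrombin, read 7.93 and 7.66 in the 2 AKP males, 7.24 and 7.20 in the AKP::Keap1 males, 7.53 and 7.53 in the AKP females, and 7.62 and 7.25 in the AKP::Keap1 females. The genotypes separated in males alone, and the difference was -0.34 ± 0.12 over both sexes (adjusted p = 0.064) and -0.58 ± 0.17 in males (adjusted p = 0.046). The male call was lost in 5 of 10 other settings, where the value lay between -0.95 and -0.07, and in 6 of 8 fits without 1 array. Serpind1, the thrombin inhibitor heparin cofactor II, read 6.84 and 6.88 in the 2 AKP males, 6.38 and 6.29 in the AKP::Keap1 males, 6.79 and 6.71 in the AKP females, and 6.61 and 6.47 in the AKP::Keap1 females. It did not overlap between genotypes and was lower, with a difference of -0.37 ± 0.08 (1.29-fold, adjusted p = 0.016). That call was lost without scaling (-0.06, adjusted p = 0.71), under quantile normalization (-0.19, 0.16), with slide as a random block (0.074) and without AKP::Keap1 male mouse 2 (0.061). Serpina10, the inhibitor that works with protein Z on factor Xa, read 6.38 and 6.16 in the 2 AKP males, 6.0 and 6.98 in the AKP::Keap1 males, 5.96 and 5.98 in the AKP females, and 6.18 and 5.95 in the AKP::Keap1 females. The groups overlapped (0.16 ± 0.22, adjusted p = 0.6), and its 2 probes had opposite signs (0.16 and -0.12).

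Serpinf2, the alpha-2-antiplasmin that stops plasmin, read 7.21 and 7.36 in the 2 AKP males, 7.03 and 7.06 in the AKP::Keap1 males, 7.27 and 7.25 in the AKP females, and 7.08 and 6.83 in the AKP::Keap1 females. It did not overlap between genotypes, but the difference of -0.27 ± 0.09 was not called (adjusted p = 0.061), and without scaling it was 0.04.

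Serping1, the C1 inhibitor of complement, read 6.13 and 6.29 in the 2 AKP males, 5.73 and 6.15 in the AKP::Keap1 males, 5.97 and 6.11 in the AKP females, and 5.66 and 5.55 in the AKP::Keap1 females. The 2 genotypes overlapped, and the difference was -0.35 ± 0.12 (adjusted p = 0.06). Serpinf1, or PEDF, is a secreted serpin without inhibitory activity that restrains vessel growth. It read 6.40 and 6.32 in the 2 AKP males, 5.80 and 5.56 in the AKP::Keap1 males, 6.18 and 6.05 in the AKP females, and 5.95 and 5.80 in the AKP::Keap1 females. There was no overlap between genotypes, and it was lower, with a difference of -0.46 ± 0.10 (1.38-fold, adjusted p = 0.013), with -0.83 at a second probe. The call was lost without scaling (-0.15, adjusted p = 0.37) and with slide as a random block (0.067). The hepatocyte list, which includes Alb and Cps1, had 4 of 8 genes lower, against 17.2% of all genes. Its summed level was 10.46 to 10.95 in AKP mice and 10.11 to 10.51 in AKP::Keap1 mice. The part of this list in the plasma serpin values was not tested.

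**Figure D3:**
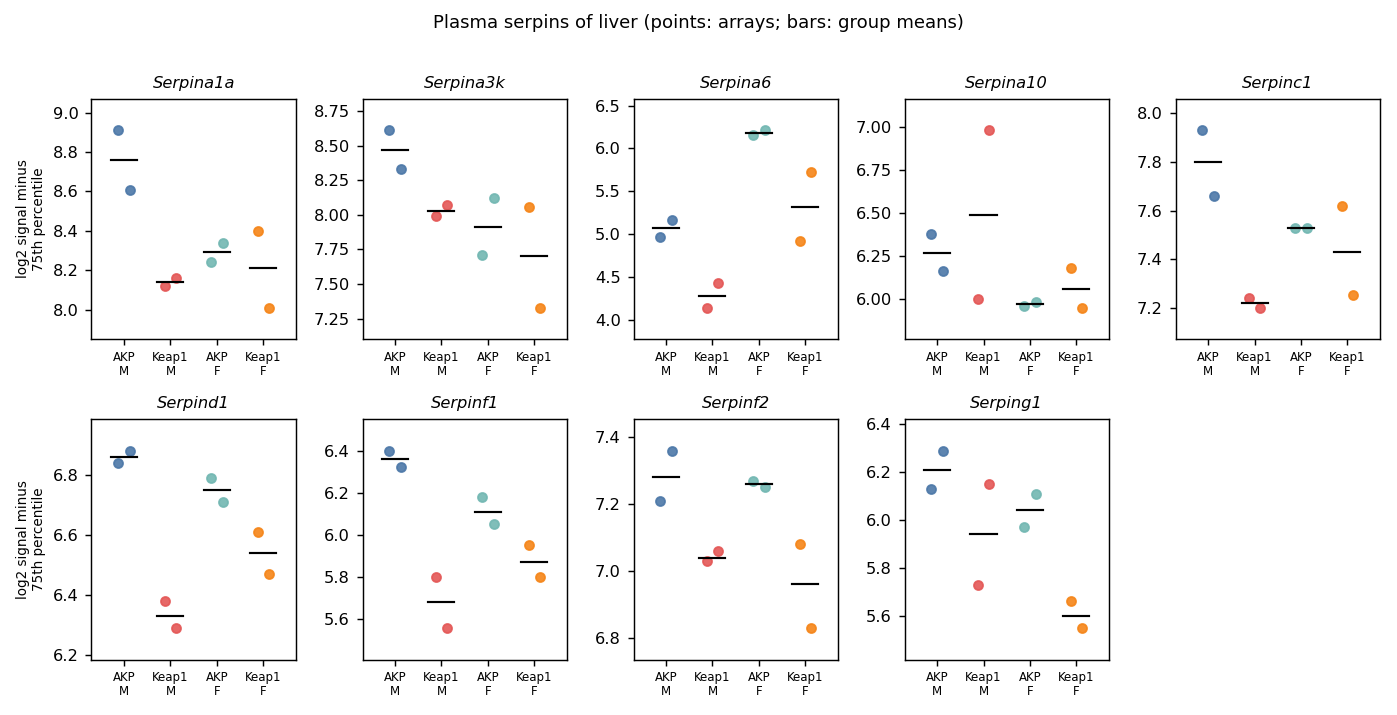
Signal of 9 serpins that liver secretes into plasma on each array, as log2 of the processed signal minus the array's 75th percentile. Points are single mice, horizontal bars are group means of 2 mice, M and F are males and females, Keap1 on the axis stands for AKP::Keap1, and each panel has its own scale. Serpind1, Serpinf1 and Serpinf2 separate all 4 AKP::Keap1 mice from all 4 AKP mice, while Serpina10 and Serpina3k overlap.

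The remaining called genes sit outside plasma and clade B. Serpinh1, the collagen chaperone Hsp47 of the endoplasmic reticulum, was higher by 0.47 ± 0.08 (adjusted p = 0.0075) without overlap between genotypes, and lost its call with arrays shifted to their median (0.22). Serpini1, neuroserpin, an inhibitor of tissue plasminogen activator, was higher by 0.79 ± 0.10 (adjusted p = 0.0026), again without overlap. It lost its call with normexp (0.10), and a second probe gave 0.61.

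Fewer serpins were called in females than in males. In males 12 serpins were higher and 4 lower (34.04% of those tested, against 28.4% of all genes, of which 16.9% were higher and 11.5% lower), and in females 6 were higher and 1 lower (14.89% against 21.4%, of all genes 12.3% higher and 9.07% lower). With scaling changed, the male split was 8 higher and 13 lower after the median shift, 10 and 1 after quantile normalization, 6 and 7 with normexp, and 18 and 0 without scaling. The female split was 6 and 3 after the median shift and 8 and 3 with normexp. Both counts include Serpinb5, and the male count includes Serpinb1b. Both genes passed the filter through AKP::Keap1 mice only. The male count fell to 6 without AKP male mouse 1 or AKP::Keap1 male mouse 2, to 7 without AKP male mouse 2 and to 8 without AKP::Keap1 male mouse 1. The female count fell to 2 without AKP female mouse 2. In the joint fit of all 8 arrays, Serpinb6a, Serpinb6c, Serpinb6d and Serpinb6e were called higher within each sex. In a fit of the females alone, only Serpinb6e of these 4 kept its female call (adjusted p = 0.095 for Serpinb6a, 0.085 for Serpinb6c and 0.06 for Serpinb6d). With 1 array left out, Serpinb6a lost its male call in 6 of 8 fits and its female call in 7 of 8, and Serpinb6c lost them in 6 and 3. Serpinb6d lost its female call without AKP female mouse 2 (0.074), and Serpinb6e lost neither call. A call in 1 sex alone does not show that the sexes differ, and the interaction tests that.

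In the interaction 1 of 47 serpins was called (2.128%, against 1.94% of all genes, 0.479% above 0 and 1.46% below), and it was Serpini2, or pancpin, a serpin known from pancreas. Serpini2 read -6.18 and -7.10 in the 2 AKP males, -4.80 and -4.01 in the AKP::Keap1 males, -4.73 and -4.47 in the AKP females, and -5.54 and -5.37 in the AKP::Keap1 females. In males the AKP::Keap1 arrays lay above the AKP arrays, and in females they lay below, and AKP male mouse 2 was not above background. The male difference was 2.24 ± 0.37 (adjusted p = 0.011), the female difference -0.86 ± 0.37 (adjusted p = 0.15), and the interaction -3.09 ± 0.52 (adjusted p = 0.049). The call did not survive leaving out any 1 of the 8 arrays, where the adjusted p lay between 0.065 and 0.13. Among 4 tested pancreatic acinar markers Cela1 was higher (3.55 ± 0.23) and Amy2a5 lower (-0.79 ± 0.14) with genotype, and Prss2, Cpa1 and Pnlip did not pass the filter.

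**Figure D4:**
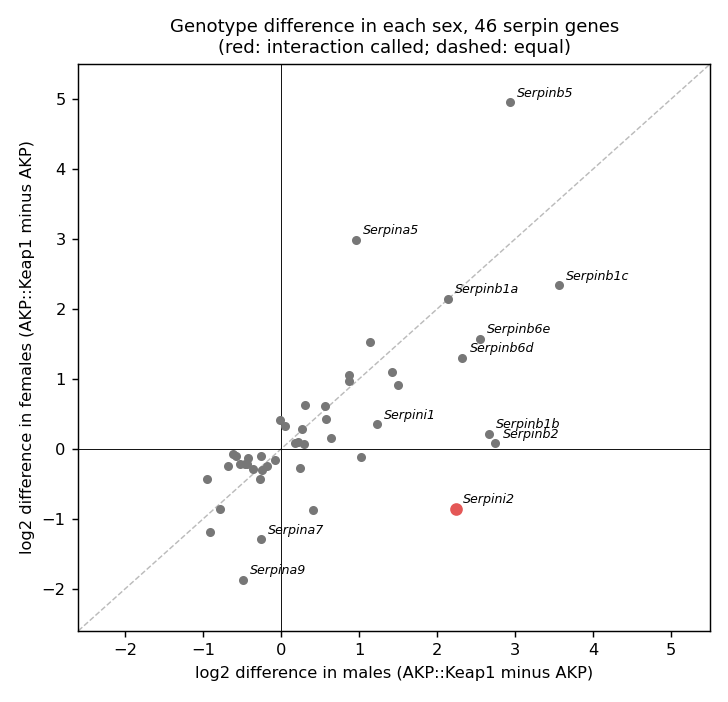
Log2 difference between AKP::Keap1 and AKP liver in males (horizontal axis) and in females (vertical axis) for 46 of the 47 serpin genes tested. Each point is a gene, the dashed line marks equal differences, and red marks Serpini2, at 2.24 and -0.86, the only serpin called in the interaction.

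Between the sexes, the called differences of 2-fold or more other than that of Serpinb5 all lay in clade A: Serpina4-ps1 and Serpina12 were lower in females, and Serpina3f and Serpina6 were higher. Averaged over the genotypes, 4 serpins were higher in females and 4 lower (17.02% of those tested, against 21.3% of all genes, 10.9% higher and 10.4% lower), and the median was -0.06 (-0.01 for all genes). The 4 higher include Serpinb9e, which was above background in females only. Without scaling the split was 2 higher and 12 lower, after the median shift 3 and 5, and with normexp 4 and 2. The count was 1 without AKP male mouse 1, 2 without AKP::Keap1 male mouse 2, 4 without AKP::Keap1 male mouse 1 or AKP female mouse 1, and 13 without AKP::Keap1 female mouse 1. With slide as a random block only Serpina12 was called. Since scan day followed sex, none of these differences can be told apart from scan day.

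Serpina12, or vaspin, is a serpin of fat, skin and liver that inhibits a kallikrein. It read -0.99 and -2.23 in the 2 AKP males, -1.51 and -1.37 in the AKP::Keap1 males, -5.00 and -3.73 in the AKP females, and -4.07 and -4.48 in the AKP::Keap1 females. Every female array was below every male array, with a difference of -2.80 ± 0.37 (6.94-fold, adjusted p = 0.0086), and the call held under every alternative tried. Serpina4-ps1, annotated as a pseudogene, is the next serpin after Serpina12 in the gene order on chromosome 12. It read 6.68 and 4.44 in the 2 AKP males, 5.26 and 4.03 in the AKP::Keap1 males, -3.66 and 1.03 in the AKP females, and -0.71 and -4.31 in the AKP::Keap1 females. No female reached the lowest male, and the females also spread widely, with an SD of 3.31 in AKP and 2.55 in AKP::Keap1 (n = 2 each). The difference was -7.01 ± 1.29 (129.1-fold, adjusted p = 0.018), and it ranged from 57.3-fold without AKP female mouse 1 to 290.6-fold without AKP female mouse 2. It lost its call with slide as a random block (0.062) and without AKP male mouse 1 (0.061), AKP::Keap1 male mouse 1 (0.055) or AKP::Keap1 male mouse 2 (0.054).

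Serpina3f, an alpha-1-antichymotrypsin paralog, read -2.52 and -1.97 in the 2 AKP males, -2.49 and -2.37 in the AKP::Keap1 males, -0.76 and -0.93 in the AKP females, and -0.50 and -1.67 in the AKP::Keap1 females. Females were above males without overlap, by 1.37 ± 0.27 (2.59-fold, adjusted p = 0.022). Without 1 array its adjusted p rose to at most 0.069, and the call was lost in 5 of those 8 fits and with slide as a random block (0.075). Its promoter printed above holds TTCCTAGAA. Serpina6, whose values on each array are given with the hormone carriers, was higher in females by 1.08 ± 0.19 (2.11-fold, adjusted p = 0.017), with 1.11 at the second probe. The highest AKP::Keap1 female was above both AKP males, while AKP::Keap1 female mouse 1 lay below them. Serpina6 lost this call with slide as a random block (0.062) and without AKP male mouse 1 (0.058), AKP::Keap1 male mouse 1 (0.052) or AKP female mouse 1 (0.054). The smaller differences were Serpinb3c (0.55 ± 0.10, adjusted p = 0.017), Serpinb9e (at least 1.29-fold higher in females, adjusted p = 0.047) and Serpina1f (-0.56 ± 0.11, adjusted p = 0.023). Serpinb9e was well above background on the 4 female arrays and on no male array. It passed the filter through the females, so its call is a description, and its sexes overlapped. Serpinb9e lost its call in 7 of 9 other settings and without any 1 of the 8 arrays. Serpina1f lost it in 5 of those fits and Serpinb3c in 2, without AKP male mouse 1 and without AKP::Keap1 male mouse 2.

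**Figure D5:**
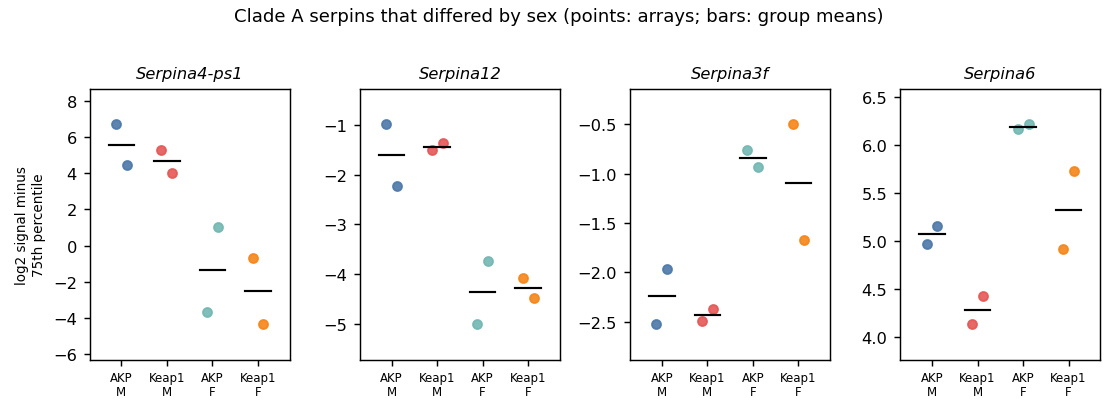
Signal of the 4 clade A serpins called between the sexes with a log2 difference of at least 1, on each array, as log2 of the processed signal minus the array's 75th percentile. Points are single mice, horizontal bars are group means of 2 mice, M and F are males and females, Keap1 on the axis stands for AKP::Keap1, and each panel has its own scale. Serpina4-ps1 and Serpina12 are lower in all 4 females than in all 4 males, Serpina3f is higher in all 4 females, and Serpina6 overlaps.

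Proteases that serpins inhibit moved in both directions with genotype. Of 34 tested, 8 were higher and 12 lower, with a median of -0.19, where 22.0% of all genes were higher and 17.2% lower. The share higher is near that of all genes and is no result about proteases. The rises included Elane, neutrophil elastase (2.19 ± 0.18, adjusted p = 0.001), and St14, the epithelial protease matriptase (3.60 ± 0.38, adjusted p = 0.0018). The falls included Hgfac, the activator of hepatocyte growth factor (-0.83 ± 0.08, adjusted p = 0.0015), and the complement protease C1rb (-1.01 ± 0.11, adjusted p = 0.0018). Of 31 tested inhibitors of other families 9 were higher and 5 lower, both near the shares among all genes. Timp1, an inhibitor of metalloproteinases, was higher by 2.49 ± 0.14 (adjusted p = 0.00036), and Spint1, an inhibitor of matriptase, by 4.16 ± 0.42 (adjusted p = 0.0017). The inter-alpha-trypsin inhibitor chains Itih2 and Itih1 were lower, with differences of -0.75 ± 0.14 (adjusted p = 0.0081) and -0.49 ± 0.10 (adjusted p = 0.012).

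Of 15 cofactors and clearance receptors of serpins 2 were higher and 4 lower, again beside 22.0% and 17.2% of all genes. Hs3st1, which makes the heparan sulfate that binds antithrombin, was higher by 1.90 ± 0.18 (adjusted p = 0.0014), and Plaur, the urokinase receptor, by 2.23 ± 0.31 (adjusted p = 0.0036). The falls included Lrp6 (-0.61 ± 0.11, adjusted p = 0.0087) and the heparan sulfate proteoglycan Sdc1 (-0.68 ± 0.14, adjusted p = 0.012). Of 17 transcription factors known to act on liver serpin genes none was higher and 6 were lower. The smallest adjusted p-values belonged to Foxa3 (-1.54 ± 0.28, adjusted p = 0.0078) and Cebpa (-0.85 ± 0.16, adjusted p = 0.0085). Between the sexes 8 of the 34 proteases were higher in females and 3 lower, 1 of 31 other inhibitors was higher and 2 lower, and 2 were higher and 2 lower among both the cofactors and the transcription factors, where 10.9% of all genes were higher and 10.4% lower.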

How the data were processed

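Values came from the deposited scanner files of 8 1-colour Agilent arrays (design 026655, mm9 annotation). Per the labels' protocols, Cy3 was put into amplified RNA from 500 ng of total RNA. Per the file headers, Agilent Feature Extraction 10.7.3.1 made the processed signal, a linear intensity after background subtraction, whereas the submitters' processing notes name 10.1. The authors' deposited series matrix holds the same intensity values (355176 of 355176 equal, relative tolerance 1e-6) and no further scaling.

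Of 44397 spots per array 1377 controls and all outlier spots were left out. Accessions were matched without versions to a RefSeq table of GRCm38.p6, which named 26055 of 39429 probes and left 13374 unnamed. The brightest kept probe stood for a gene; 13 serpin genes had several. A gene also needed a value in every group. One mean per group was fitted with limma 3.58.1 (R 4.3.3), and p-values were adjusted by Benjamini-Hochberg over 15862 genes; tests are two-sided, ± is a standard error unless SD is written, and n is 2 mice per group. Sums of marker lists are log2 of added signals relative to the 75th percentile. Simulated data were used to test the fit. Replicates correlated at 0.9895 to 0.9920 across genes.

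Members and lists were chosen with earlier results of these data known. Values on each array are given for members called in the genotype, interaction or sex comparison with a log2 difference of 1 or more and for 9 plasma serpins; 1 further member is counted but not reported here; of other lists, up to 2 rises and 2 falls with the smallest adjusted p are named. Alternatives covered scaling, background correction, filter, probe choice, variance prior, replicate and slide blocks, 1 sex alone, and leaving out each array. Normexp used the median spot signal (offset 50), chosen after seeing the files, because no mean signal column was in them. The number of arrays limits precision.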

Additional observations from a re-analysis of the deposited data

Results flagged for a closer look

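Serpini2 was the only serpin called in the interaction of genotype and sex, at -3.093 on the log2 scale (standard error 0.52, limma adjusted p = 0.049). That is 2.128% of the serpins tested, against 1.94% of all genes. The call was lost in 4 of 8 other settings and did not survive leaving out any 1 array. Both AKP::Keap1 males were above both AKP males and both AKP::Keap1 females were below both AKP females. The interaction was -2.869 (adjusted p = 0.062) under quantile normalization and -0.481 (0.24) with normexp, and AKP male mouse 2 was not above background. Cela1 and Amy2a5, pancreatic acinar markers, differed by genotype in opposite directions, and their part in the Serpini2 values was not tested.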

How the results depend on the processing

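The genotype count of 18 lay between 12 and 24 in all alternatives, and that of chromosome 13 serpins called higher between 6 and 9. The male count was 6 to 17 with 1 array left out. The female count was 11 with normexp, 2 in a fit of the females alone, and 2 to 7 with 1 array left out. The interaction count was 0 under quantile normalization, normexp, no filter, the filter on all arrays, the replicate block and each fit without 1 array (0 to 0), and 3 without scaling. The sex count was 14 without scaling, 1 with slide as a random block (consensus correlation 0.23) and 1 to 13 with 1 array left out. Of the values of single genes under the alternatives, 3772 kept their side of the threshold, 220 lost a call, 124 gained one and 7 reversed. A value was counted as reversed if its sign changed and it was called under either setting. Changes of sign between values that were not called were counted among the 3772. All 7 reversals came with normexp: genotype differences of Serpina1f (-0.032), Serpinb12 (-0.381) and Serpinb1b (-0.176), and male differences of Serpina1f (-0.154), Serpinb12 (-0.707), Serpinb1b (-0.361) and Serpinb3c (-0.512). The cause was not tested. With the replicate number as a block the genotype count was 17 (13 higher, 4 lower), the male count 13, the female count 9, the sex count 7 and the chromosome 13 count 8. Deviations of same-numbered mice correlated at -0.16 to 0.12 between groups. With 2 mice per group, this cannot show whether the numbers mark a shared litter or day. Dim serpins are limited by signal: 11 of 58 were not tested, and 12 of the 47 tested were not above background on every array.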
